A study of Homo sapiens with 9 samples.

Results

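Expression was examined for 9 genes of zinc buffering and zinc export among the 36018 genes counted by RNA sequencing. The cells are labelled HCT-15, the name of an established human colorectal adenocarcinoma line. The 9 genes were taken by name: the metallothioneins MT1A, MT1E, MT1F, MT1G, MT1M, MT1X and MT2A, the zinc-sensing transcription factor MTF1, and the zinc exporter SLC30A1. The libraries were 3 of wild-type HCT-15 cells with no treatment (control), 3 of a derived line tolerant to cobalt chloride (CoCl2), and 3 of a derived line tolerant to low glucose. Each tolerant line was raised by culture in growing amounts of its stressor, and all cells grew in RPMI1640 with 10% fetal bovine serum. Each tolerance is represented by 1 derived line. The labels do not say if replicate libraries were grown as separate cultures, so p-values here reflect only library-to-library spread, part or all of which may be technical. The sources used here do not give the doses, or whether the stressor was present at harvest.

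Metallothioneins are small cysteine-rich proteins that bind zinc and copper, hold the free zinc of the cell low, and also take up toxic metals such as cadmium. When free zinc rises, the zinc-finger protein MTF1 binds metal response elements in promoters and switches on metallothionein genes and SLC30A1, whose product moves zinc out of the cell across the plasma membrane. In intestinal epithelium this system works together with the zinc importers of the SLC39 (ZIP) family, which act in the opposite direction to the SLC30 (ZnT) exporters.

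The 7 metallothionein genes lie in a cluster on chromosome 16 and MTF1 and SLC30A1 lie on chromosome 1, in GENCODE 29 annotation of GRCh38. MT2A (ENSG00000125148) spans chr16:56608199-56609497, MT1E (ENSG00000169715) chr16:56625475-56627112 and MT1M (ENSG00000205364) chr16:56632233-56633986, all on the plus strand. MT1A (ENSG00000205362) at chr16:56638666-56640087, MT1F (ENSG00000198417) at chr16:56657694-56660698 and MT1X (ENSG00000187193) at chr16:56682424-56684196 are also on the plus strand, and MT1G (ENSG00000125144) at chr16:56666731-56668065 is on the minus strand. MTF1 (ENSG00000188786) at chr1:37809567-37859620 and SLC30A1 (ENSG00000170385) at chr1:211571568-211578742 are both on the minus strand. Counts are for whole genes, summed over exons.

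The metallothionein genes are close copies of each other, which bears on how reads are assigned to them. In the principal transcript of each of the 7 genes the coding sequence has 186 bases over 3 exons and encodes 61 residues. Over the 21 pairs, coding identity ran from 88.7% to 95.2%. The coding strands of MT2A and of 3 MT1 genes that the results turn on are shown, to let a reader see how near the copies are, with bases that differ from MT2A in capitals, 14 in MT1E, 19 in MT1M and 16 in MT1F.
MT2A: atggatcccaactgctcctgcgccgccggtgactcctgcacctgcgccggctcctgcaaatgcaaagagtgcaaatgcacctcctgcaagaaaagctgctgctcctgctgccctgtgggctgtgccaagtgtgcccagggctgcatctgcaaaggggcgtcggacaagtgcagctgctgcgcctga
MT1E: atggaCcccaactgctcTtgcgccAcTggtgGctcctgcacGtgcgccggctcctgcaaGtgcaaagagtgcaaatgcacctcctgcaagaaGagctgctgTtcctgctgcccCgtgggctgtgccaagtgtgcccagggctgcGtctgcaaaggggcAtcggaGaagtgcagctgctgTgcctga
MT1M: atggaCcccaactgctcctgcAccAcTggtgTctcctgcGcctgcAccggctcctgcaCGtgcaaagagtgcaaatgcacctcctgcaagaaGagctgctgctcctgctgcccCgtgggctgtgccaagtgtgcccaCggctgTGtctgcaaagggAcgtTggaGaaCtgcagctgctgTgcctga
MT1F: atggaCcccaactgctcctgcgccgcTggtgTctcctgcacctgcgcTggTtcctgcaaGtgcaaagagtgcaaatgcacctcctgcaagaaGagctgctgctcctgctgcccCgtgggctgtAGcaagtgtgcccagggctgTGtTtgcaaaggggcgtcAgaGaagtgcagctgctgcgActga
The differences are spread along the whole reading frame. Of the 50-base windows of each metallothionein transcript, between 3.59% (MT1F) and 45.1% (MT1X) also occurred exactly in a transcript of another gene. At 100 bases the share was 0 for 6 of the 7, and 19.1% for MT1X, whose exons overlap those of AC026461.1 on the same strand over 18.1% of their bases. No 200-base window was shared. The sources used here do not give the read length or how the counting treated reads with several matches, so values of single metallothionein genes, MT1X and MT1G above all, carry that uncertainty.

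Promoters in RefSeq (GRCh38.p14) were matched for 4 of the 9 genes, MT2A, MT1X, SLC30A1 and MTF1. The 250 bases before the RefSeq start were searched on both strands for the core of the metal response element, TGCACNC or TGCGCNC. The windows of the 3 genes with a match are shown, with the matches in capitals: MT2A at chr16:56608334-56608583 (plus strand), MT1X at chr16:56682220-56682469 (plus strand) and SLC30A1 at chr1:211579162-211579411 (minus strand).
MT2A: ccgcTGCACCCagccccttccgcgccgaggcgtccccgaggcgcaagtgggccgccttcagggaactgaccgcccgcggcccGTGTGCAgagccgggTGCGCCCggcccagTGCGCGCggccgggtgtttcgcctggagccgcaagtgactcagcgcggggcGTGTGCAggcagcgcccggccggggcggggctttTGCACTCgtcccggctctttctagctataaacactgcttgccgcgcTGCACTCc
MT1X: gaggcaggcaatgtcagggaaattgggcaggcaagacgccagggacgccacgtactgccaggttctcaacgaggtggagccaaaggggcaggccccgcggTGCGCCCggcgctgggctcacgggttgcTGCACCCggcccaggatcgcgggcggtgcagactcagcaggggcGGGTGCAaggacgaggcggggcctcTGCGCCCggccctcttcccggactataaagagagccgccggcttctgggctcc
SLC30A1: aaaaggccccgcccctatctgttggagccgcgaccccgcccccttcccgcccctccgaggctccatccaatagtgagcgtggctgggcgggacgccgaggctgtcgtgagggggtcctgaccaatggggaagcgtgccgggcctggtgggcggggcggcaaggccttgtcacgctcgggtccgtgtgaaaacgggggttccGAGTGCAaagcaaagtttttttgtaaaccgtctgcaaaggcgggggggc
MT2A held 7 matches, a number reached by 0.033% of 27305 RefSeq promoter windows of this length. MT1X held 4, reached by 0.366%. SLC30A1 held 1, and 24.7% of windows held at least 1, while MTF1 held 0. A match describes the letters of a window and is not a measurement of binding. The MT2A window lies inside the wider GENCODE span of that gene, whose start is farther upstream than the RefSeq start. The MT1X window reaches into the GENCODE span of that gene. For SLC30A1 the whole window lies upstream of the GENCODE start at 211578742, and the bases just before that start were not searched.

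Library totals ran from 25178615 to 32674687 counts, and all 9 genes passed the filter on low counts that left 17902 genes for testing. Levels are CPM, the counts of a gene scaled to a library of 1000000 counts, adjusted with TMM factors of 0.922 to 1.04. Changes are log2 fold changes with standard errors from edgeR's quasi-likelihood test over all 9 libraries, with Benjamini-Hochberg adjustment over all genes tested and a threshold of 0.05. In these bulk libraries, fewer cells expressing a gene and less RNA per cell cannot be told apart. Low-glucose-tolerant replicate 2 stood apart from the other libraries of its group in these genes, with the lowest value of 6 metallothioneins and the highest of MTF1. CoCl2-tolerant replicate 1 stood apart for MT1X. Both libraries also differed most from their groups over all genes, by chi-squared per degree of freedom, a measure of difference beyond counting error. For CoCl2-tolerant replicate 1 it was 29.2 and 20.2 against replicates 2 and 3, and 7.56 between those. For low-glucose-tolerant replicate 2 it was 50.5 and 66.7 against replicates 1 and 3, and 24.6 between those. Ribosomal protein genes took 3.52% to 3.67% of control counts. In the CoCl2-tolerant line they took 4.29% to 5.35%, and in the low-glucose-tolerant line 7.25% to 10.8%, with low-glucose-tolerant replicate 2 the lowest of its group. Mitochondrially encoded genes took 8.08% to 9.80% of control counts, 4.64% to 6.67% in the CoCl2-tolerant line and 4.74% to 5.20% in the low-glucose-tolerant line. As a check of the label, 13 of 16 markers of intestinal epithelium did not reach 1 CPM in any group, while all 5 general epithelial markers were above it in at least 1 group. The 6 fibroblast markers summed to between 1832 and 1880 CPM per control library, between 242 and 273 CPM in the CoCl2-tolerant line and between 25.4 and 35.4 CPM in the low-glucose-tolerant line. Nearly all of the control sum was COL1A1, a collagen gene, at a mean of 1855 CPM in control, 250.1 CPM in CoCl2-tolerant and 21.5 CPM in low-glucose-tolerant libraries. The sum therefore describes that gene and not the list. PDGFRB, at 5.80 CPM in control, fell in the CoCl2-tolerant line (edgeR adjusted p = 8.59e-06) and at 5.55 CPM did not pass in the low-glucose-tolerant line, COL1A2 passed in neither, and DCN rose in the low-glucose-tolerant line (edgeR adjusted p = 1.42e-05). The mean levels of DCN, LUM and COL3A1 were under 1 CPM in every group, as were 5 of 6 leukocyte and all 4 endothelial markers. The part of these shifts in the results that follow was not tested.

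MT2A and MT1E made up almost the whole metallothionein pool in every library. Per kilobase of the principal transcript, the mean control level was 907 CPM ± 96.1 (SD, n = 3) for MT2A and 463 CPM ± 27.6 for MT1E. Next came SLC30A1 at 13.3 CPM per kilobase ± 0.429, and then MT1F at 11.0 ± 0.581, MT1M at 11.0 ± 0.916 and MT1X at 10.4 ± 0.794, which did not differ from each other beyond their spread. MTF1, at 2.24 CPM per kilobase ± 0.176, stood above MT1A at 1.10 ± 0.328 and MT1G at 1.06 ± 0.552, a pair that also lay within its spread. In the low-glucose-tolerant line MT2A (2355) and MT1E (1703) again led, as mean CPM per kilobase. Below them came MT1M (77.5), MT1X (42.5 ± 9.16), MT1F (36.0 ± 7.16), SLC30A1 (18.7), MT1A (6.61), MTF1 (2.75) and MT1G (0.687). MT1X and MT1F lay within their spread. Counts cover all exons, 1773 bases for MT1X and 1889 for MT1F, against principal transcripts of 450 and 690 bases. The places of genes in both orders therefore depend on the length used.

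**Figure D1:**
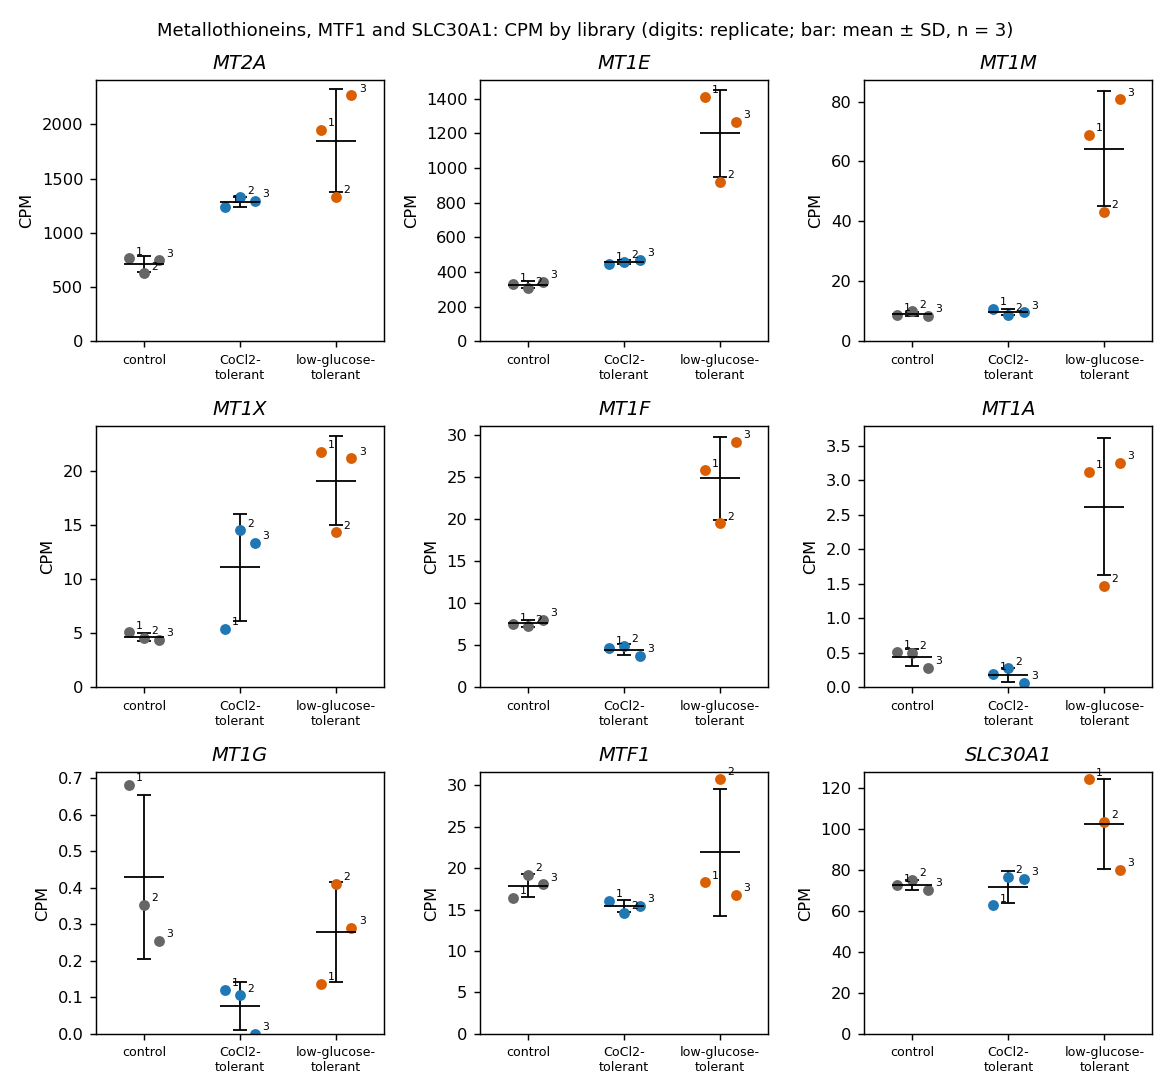
Level of each of the 9 genes in CPM (linear axes from 0, 1 panel per gene) in the 3 control, 3 CoCl2-tolerant and 3 low-glucose-tolerant libraries. Dots are libraries with their replicate number, and bars are the mean ± SD of 3. MT1E, MT1M, MT1F and MT1A are far higher in all 3 low-glucose-tolerant libraries than in any other, and replicate 2 is the lowest of that group in each of these panels.

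The low-glucose-tolerant line had more metallothionein RNA than the control line. Against control, 7 of the 9 genes rose (MT1A, MT1E, MT1F, MT1M, MT1X, MT2A and SLC30A1), none fell, and MT1G and MTF1 did not pass edgeR's test. Of all 17902 genes tested, 34.6% rose and 34.6% fell in this comparison, 69.2% in either direction. The median log2 fold change was 1.70 over the 9 genes and -0.01 over all genes tested. The same 7 genes were higher in all 3 low-glucose-tolerant libraries than in any control library, as 36.4% of all genes tested were.

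MT2A, the most abundant metallothionein, was at 765, 626 and 747 CPM in the control libraries and at 1951, 1333 and 2269 CPM in the low-glucose-tolerant libraries. The groups did not overlap, and replicate 2 of the tolerant line lay nearest to control. The log2 fold change of MT2A was 1.38 ± 0.16 (SE, edgeR adjusted p = 3.20e-06). MT1E, the only other metallothionein at a comparable level, was at 328, 306 and 345 CPM in control and at 1411, 919.6 and 1266 CPM in the low-glucose-tolerant line. It rose by a log2 fold change of 1.88 ± 0.14 (edgeR adjusted p = 3.25e-08), with every tolerant library above every control library.

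The less abundant MT1M had the highest log2 fold change of the 9 genes, within the standard errors of that of MT1A. It was at 8.74, 9.97 and 8.57 CPM in control and at 69.0, 43.1 and 80.7 CPM in the low-glucose-tolerant line, a log2 fold change of 2.82 ± 0.20 (edgeR adjusted p = 1.49e-08). Even the lowest tolerant library was several times above the highest control. MT1F moved from 7.51, 7.29 and 8.07 CPM to 25.8, 19.5 and 29.2 CPM, a log2 fold change of 1.70 ± 0.16 (edgeR adjusted p = 2.93e-07). MT1X moved from 5.10, 4.59 and 4.41 CPM to 21.8, 14.4 and 21.2 CPM, a log2 fold change of 2.02 ± 0.28 (edgeR adjusted p = 1.64e-05). In both genes the groups were apart and replicate 2 was the lowest tolerant library.

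MT1A and MT1G were detected at the lower end of the counts. MT1A had 42 counts over the 3 control libraries and 225 over the 3 low-glucose-tolerant ones, a ratio of scaled counts of 5.98 (95% interval 4.29 to 8.53, counting error only). Its log2 fold change was 2.57 ± 0.36 (edgeR adjusted p = 2.09e-05), and the libraries did not overlap. MT1G, the only metallothionein of the 7 on the minus strand, had 21, 12 and 8 counts in control and 4, 12 and 8 in the low-glucose-tolerant line. These overlapped, with a log2 fold change of -0.61 ± 0.53 that did not pass (edgeR adjusted p = 0.317).

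The exporter SLC30A1 also rose. It was at 72.6, 75.1 and 70.4 CPM in control and at 124, 103 and 80.0 CPM in the low-glucose-tolerant line. All tolerant libraries were above control, replicate 3 by the smallest margin, and the log2 fold change was 0.50 ± 0.14 (edgeR adjusted p = 0.00654). MTF1, their regulator, was at 16.4, 19.2 and 18.1 CPM in control and at 18.3, 30.8 and 16.8 CPM in the low-glucose-tolerant line. Only replicate 2 lay above all controls, and the log2 fold change of MTF1 of 0.29 ± 0.18 did not pass (edgeR adjusted p = 0.168). Without low-glucose-tolerant replicate 2 it was -0.02 (edgeR adjusted p = 0.866), and without replicate 3 it was 0.46 (edgeR adjusted p = 0.0322), in a range over 19 alternatives of 0.00127 to 0.866.

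The metallothionein transcripts are short, at 396 to 829 bases. Of 1481 other tested genes with transcripts in this length range, 437 rose and 511 fell in the low-glucose-tolerant line, with a median log2 fold change of -0.14. Among the 274 of them that are protein-coding and outside the ribosomal proteins, 121 rose and 51 fell, with a median of 0.38. After a trend over length and GC content of the transcripts was taken out of each library, the 7 genes that rose kept their direction and call. The log2 fold changes were then 0.69 for MT2A, 1.27 for MT1E, 2.16 for MT1M, 1.33 for MT1X, 1.07 for MT1F, 1.85 for MT1A and 0.93 for SLC30A1, so the exporter was below MT2A without this correction and above it with it. Under that setting MTF1 (0.49, edgeR adjusted p = 0.00127) and MT1G (-1.29, edgeR adjusted p = 0.0470) also passed.

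**Figure D2:**
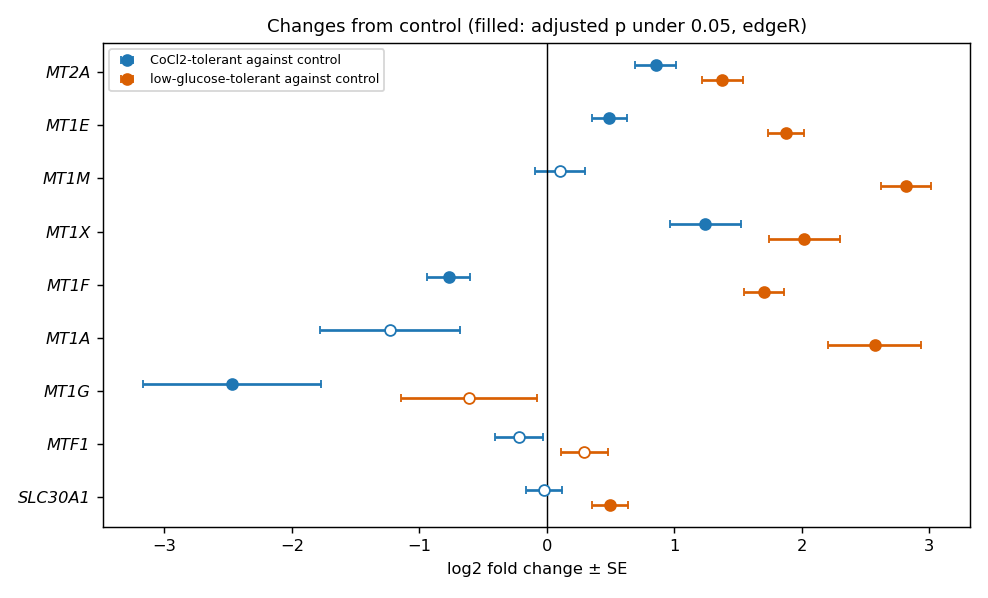
Log2 fold change ± SE against control (x axis) of the 9 genes (y axis) in the CoCl2-tolerant (blue) and low-glucose-tolerant (orange) lines, filled where the edgeR adjusted p was under 0.05. The orange points of 7 genes are filled and to the right of 0, while the blue points lie on both sides, from 1.24 for MT1X to -2.47 for MT1G.

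In the CoCl2-tolerant line the metallothioneins moved in both directions. MT2A, MT1E and MT1X rose, MT1F and MT1G fell, and MT1A, MT1M, MTF1 and SLC30A1 did not pass edgeR's test. The 3 that rose and the 2 that fell stand beside 17.9% and 18.2% of all genes tested that rose and fell, 36.1% in either direction. The median log2 fold change was -0.02 over the 9 genes and 0.01 over all genes tested. The libraries did not overlap for 3 genes that were higher and 4 that were lower, beside 28.3% and 28.8% of all genes tested. These comparisons use the same control libraries as those of the low-glucose-tolerant line.

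MT2A was at 1238, 1329 and 1298 CPM in the CoCl2-tolerant libraries, each above every control library, a log2 fold change of 0.85 ± 0.16 (edgeR adjusted p = 9.42e-04). MT1E was at 446, 458 and 470.5 CPM, also above every control, with a smaller log2 fold change of 0.49 ± 0.14 (edgeR adjusted p = 0.0122). The call on MT1E was lost without control replicate 2 (edgeR adjusted p = 0.0607) and after removal of the length and GC trend (0.24, edgeR adjusted p = 0.139), in a range over 19 alternatives of 1.20e-04 to 0.139. MT1X was at 5.42, 14.5 and 13.3 CPM, so that replicate 1 lay just above the highest control at 5.10 CPM and the other two lay far above it. Its log2 fold change was 1.24 ± 0.28 (edgeR adjusted p = 0.00354), and 1.57 (edgeR adjusted p = 2.61e-05) without CoCl2-tolerant replicate 1.

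MT1F was at 4.70, 4.97 and 3.74 CPM, below every control library, a log2 fold change of -0.77 ± 0.17 (edgeR adjusted p = 0.00289). MT1G had 3, 3 and 0 counts, against 41 over the control libraries, and a count of 0 in replicate 3 allows up to 0.106 CPM. The ratio of control to CoCl2-tolerant counts was 5.81 (95% interval 2.45 to 16.7, counting error only), with a log2 fold change of -2.47 ± 0.70 (edgeR adjusted p = 0.0134). That call was lost without control replicate 1 (edgeR adjusted p = 0.0708) and without CoCl2-tolerant replicate 3 (edgeR adjusted p = 0.0565), in a range over 17 alternatives of 9.15e-04 to 0.0708.

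Of the other 4 genes, MT1A had 5, 8 and 2 counts against 16, 17 and 9 in control, with a log2 fold change of -1.23 ± 0.55 that did not pass (edgeR adjusted p = 0.0936). It passed with no filter (edgeR adjusted p = 0.0354), after removal of the length and GC trend (0.0252) and without low-glucose-tolerant replicate 2 (0.0386), in a range over 17 alternatives of 0.0252 to 0.297. MT1M was at 10.9, 8.75 and 9.71 CPM, inside and just above the control range, with a log2 fold change of 0.10 ± 0.20 (edgeR adjusted p = 0.711). MTF1 was at 16.1, 14.6 and 15.4 CPM, all below the lowest control at 16.4 CPM, with a log2 fold change of -0.22 ± 0.19 that did not pass (edgeR adjusted p = 0.384). SLC30A1 was at 62.7, 76.7 and 75.5 CPM around the control range, with a log2 fold change of -0.02 ± 0.14 (edgeR adjusted p = 0.922). The sign of that last value changed under 4 of 19 alternatives.

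The tolerant lines were also compared with each other, which tests directly whether their changes differ. All 9 genes were lower in the CoCl2-tolerant than in the low-glucose-tolerant line, beside 32.0% of all genes tested that were lower and 63.9% that differed in either direction, with a median log2 fold change of -1.39 against 0.01 over all genes tested. In 8 of the 9 every CoCl2-tolerant library was below every low-glucose-tolerant one (31.5% of all genes tested), and MT1X overlapped. Some of these gaps were narrow. The highest CoCl2-tolerant and lowest low-glucose-tolerant libraries were at 1329 and 1333 CPM for MT2A and at 16.1 and 16.8 CPM for MTF1. They were at 76.7 and 80.0 CPM for SLC30A1, and had 3 and 4 counts for MT1G. Of 27 tested genes outside the family within 1 Mb of the metallothionein cluster, 19 were also lower. The difference was -2.72 ± 0.20 for MT1M (edgeR adjusted p = 3.00e-08), -3.80 ± 0.44 for MT1A (edgeR adjusted p = 3.47e-06), -2.47 ± 0.17 for MT1F (edgeR adjusted p = 1.55e-08) and -1.39 ± 0.14 for MT1E (edgeR adjusted p = 8.20e-07). It was smaller for SLC30A1, at -0.52 ± 0.14 (edgeR adjusted p = 0.00567), and for MT2A, at -0.52 ± 0.16 (edgeR adjusted p = 0.00997). These calls held under every alternative run for MT1A, MT1E, MT1F, MT1M and SLC30A1.

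The other 4 calls depended on the setting. MT2A was no longer called after removal of the length and GC trend (-0.07, edgeR adjusted p = 0.602), nor when low-glucose-tolerant replicate 3 was left out (-0.36, edgeR adjusted p = 0.0509), over a range of 2.99e-05 to 0.602. MT1X (-0.78 ± 0.26, edgeR adjusted p = 0.0187) was lost in 3 of 19 alternatives, the length and GC trend (0.281) and leaving out low-glucose-tolerant replicate 1 (0.0696) or 3 (0.0553), over a range of 7.83e-07 to 0.281. MTF1 (-0.51 ± 0.19, edgeR adjusted p = 0.0263) was lost in 7 of 19, among them leaving out low-glucose-tolerant replicate 2 (-0.20, edgeR adjusted p = 0.146), CoCl2-tolerant replicate 2 (0.0737) or CoCl2-tolerant replicate 3 (0.0599), over a range of 8.63e-04 to 0.146. MT1G (-1.86 ± 0.76, edgeR adjusted p = 0.0448) was lost in 8 of 17, up to 0.157 without low-glucose-tolerant replicate 2. The others among these that left out 1 library were without control replicate 2 (0.0554), without CoCl2-tolerant replicate 2 (0.0612) or 3 (0.152), and without low-glucose-tolerant replicate 3 (0.0806).

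The makeup of the metallothionein pool differed between the lines as well as its size. The 7 genes summed to 1061 CPM ± 92.1 (SD, n = 3) in control, 1772 CPM ± 58.9 in CoCl2-tolerant and 3161 CPM ± 725 in low-glucose-tolerant libraries, with no overlap between the groups. MT2A was 67.1% ± 1.51 of metallothionein counts in control, 72.7% ± 0.444 in CoCl2-tolerant and 58.3% ± 3.07 in low-glucose-tolerant libraries. MT1E was 30.8% ± 1.34, 25.9% ± 0.538 and 38.2% ± 3.21 in the same order. The share of MT2A was thus highest and that of MT1E lowest in the CoCl2-tolerant line. MT1M made up 0.866% of the pool in control, 0.554% in CoCl2-tolerant and 2.01% in low-glucose-tolerant libraries.

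**Figure D3:**
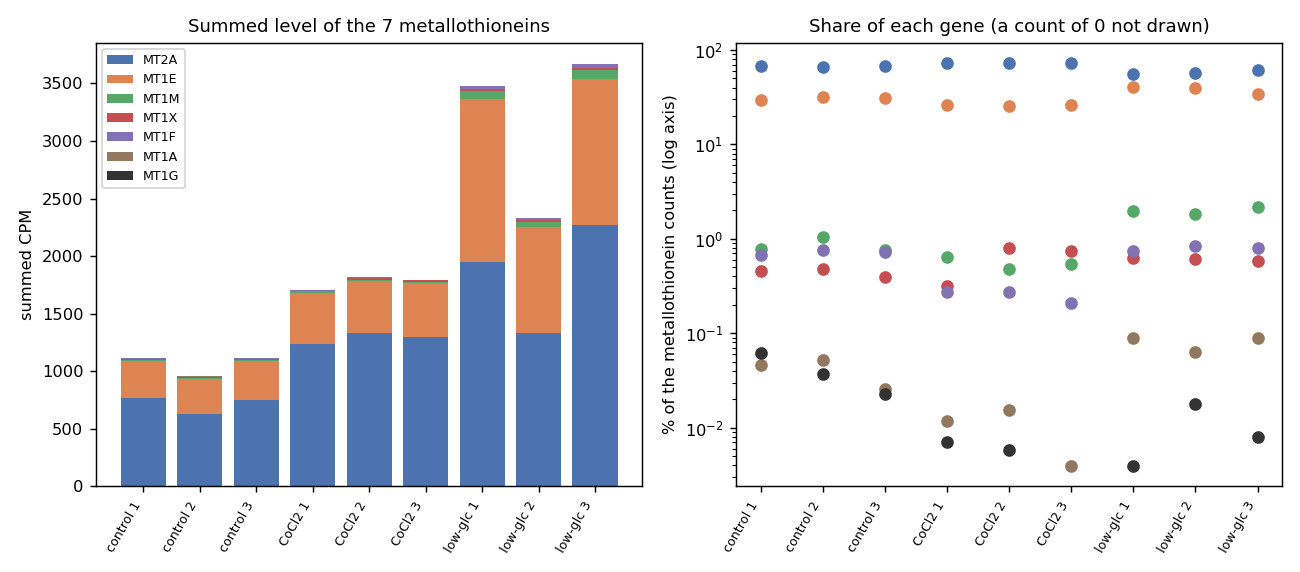
Left, summed CPM of the 7 metallothioneins in each of the 9 libraries, stacked by gene. Right, share of each gene in the metallothionein counts of that library (log axis, a count of 0 not drawn). The stacks are tallest in the low-glucose-tolerant libraries, where MT1E takes 34.5% to 40.5% of the pool.

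Most other metallothionein genes had few counts. Of 12 listed, 8 were in the files and 2 could be tested. MT3, the brain-enriched metallothionein, and MT1H had 19 and 7 counts over all 9 libraries. The MT1H promoter window held 8 metal response element cores, more than that of MT2A. MT2P1, a processed pseudogene of MT2A on chromosome 4, rose by log2 fold changes of 0.91 in the CoCl2-tolerant line (edgeR adjusted p = 0.00435) and 1.48 in the low-glucose-tolerant line (edgeR adjusted p = 2.38e-05). Its counts were 0.807% to 1.24% of those of MT2A, with both extremes in the CoCl2-tolerant line (replicates 1 and 2). Reads of MT2A counted to MT2P1 cannot be told apart from transcripts of the pseudogene.

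Genes around the cluster were counted in the same fit. Within 1 Mb of it, 16 of 27 tested genes outside the family rose, 5 fell and 6 did not pass in the low-glucose-tolerant line, with a median log2 fold change of 0.55, beside 34.6% of all genes tested that rose and 34.6% that fell. The difference between these shares was not tested. On chromosome 16 as a whole, outside the family, 415 of 843 rose and 189 fell, with a median of 0.43. MT1A, MT1E, MT1F, MT1M, MT1X and MT2A each rose by more than either median. HERPUD1, a target of ER stress within the 1 Mb window, rose by 3.58 ± 0.11 (edgeR adjusted p = 1.24e-11), while the nearest tested neighbour of MT2A, the lincRNA gene ENSG00000260823, whose start lies 1.30 kb from that of MT2A, was at -0.24 ± 0.35 (edgeR adjusted p = 0.552). NUP93, whose start lies 122 kb from that of MT2A, was at -0.13 ± 0.10 (edgeR adjusted p = 0.293). For these distances the start is the lowest coordinate of a gene on either strand. In the CoCl2-tolerant line 3 of the 27 rose and 8 fell, with a median of -0.11, beside 17.9% and 18.2% of all genes tested. Between the tolerant lines, 19 of the 27 were lower in the CoCl2-tolerant line and 1 was higher, with a median of -0.74. Of all genes tested, 32.0% were lower and 31.9% higher. On chromosome 16 outside the family, 411 of 843 were lower and 182 higher, with a median of -0.39. The difference of MT2A, at -0.52, lay between these medians. Whether a shift of the region or of the chromosome has a part in the metallothionein values was not tested. Leaving chromosome 16 out of the scaling left the number of the 9 genes called at 7 in the low-glucose-tolerant and 5 in the CoCl2-tolerant comparison. That setting changes only the scaling factors, so it cannot show whether the region or the chromosome shifted.

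**Figure D4:**
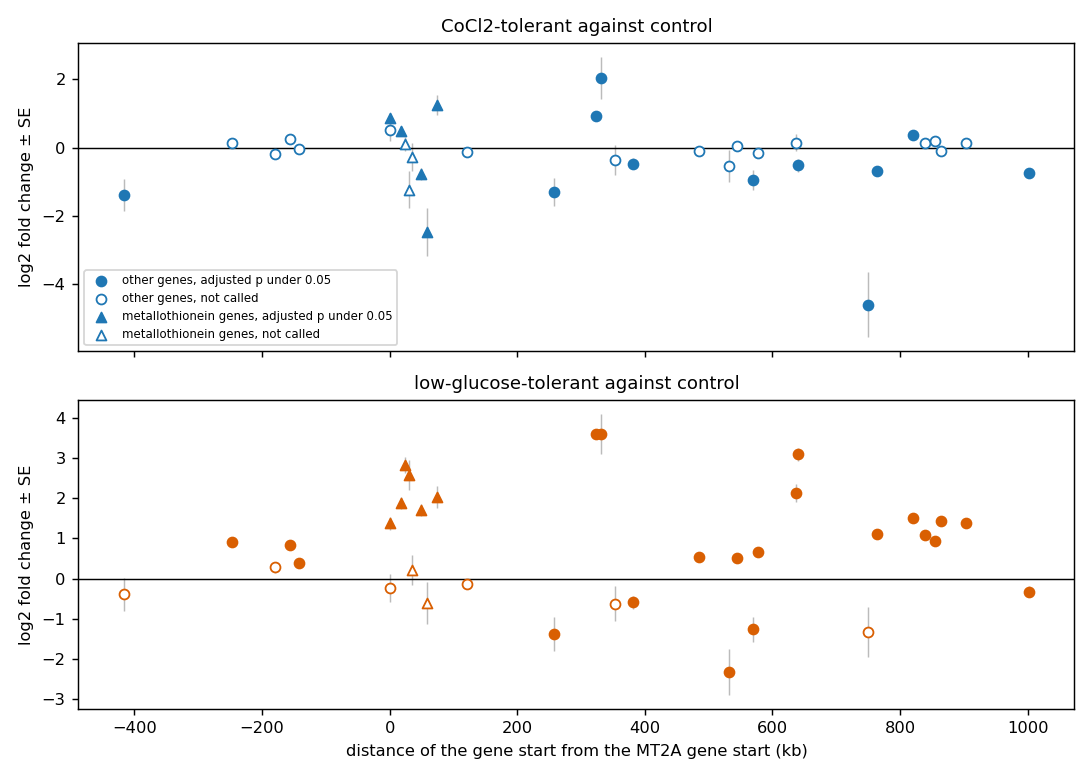
Log2 fold change ± SE against control (y axis) of tested genes within 1 Mb of the metallothionein cluster, by distance of the gene start from that of MT2A in kilobases (x axis), in the CoCl2-tolerant (top) and low-glucose-tolerant (bottom) lines. The start is the lowest coordinate of a gene on either strand. Triangles are metallothionein genes and circles other genes, filled where the edgeR adjusted p was under 0.05. In the lower panel 16 of the 27 circles are filled and above 0. The highest are HERPUD1 and ENSG00000261270, each at 3.58.

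Among the other zinc exporters and vesicular zinc transporters, 7 were tested. In the low-glucose-tolerant line SLC30A7 and TMEM163 rose and 1 fell, with a median log2 fold change of -0.04, where 69.2% of all genes tested changed. SLC30A7, which loads zinc into the secretory pathway, went from 20.4 CPM ± 0.244 to 39.7 CPM ± 8.98 (log2 fold change 0.96 ± 0.18, edgeR adjusted p = 2.26e-04). TMEM163 went from 0.884 CPM to 4.76 CPM (log2 fold change 2.42 ± 0.21, edgeR adjusted p = 1.65e-07). In the CoCl2-tolerant line none of the 7 rose and 1 fell, where 36.1% of all genes tested changed. SLC30A10, a plasma membrane transporter best known for manganese export, was too low to test, at 0.104 CPM in control.

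Of 11 zinc importers tested, 4 rose and 4 fell in the low-glucose-tolerant line, near the 34.6% of all genes tested that rose and the 34.6% that fell, with a median of 0.14. SLC39A14, which imports zinc, iron and manganese, was at 133, 147 and 135 CPM in control and at 334, 384 and 323 CPM in the low-glucose-tolerant line (log2 fold change 1.33 ± 0.10, edgeR adjusted p = 5.94e-08). SLC39A10, a plasma membrane importer, was at 81.5, 84.0 and 82.5 CPM in control, at 45.2, 55.8 and 50.8 CPM in CoCl2-tolerant and at 34.1, 36.6 and 26.3 CPM in low-glucose-tolerant libraries. SLC39A10 thus fell in both lines with no overlap among the 3 groups, by -0.71 ± 0.13 (edgeR adjusted p = 7.64e-04) and -1.35 ± 0.13 (edgeR adjusted p = 4.47e-07) on the log2 scale. SLC39A11 rose in the low-glucose-tolerant line (1.24 ± 0.11, edgeR adjusted p = 2.61e-07), and SLC39A1 fell (-0.85 ± 0.22, edgeR adjusted p = 0.00359), though its counts are uncertain because its exons overlap those of another gene. In the CoCl2-tolerant line 1 of 11 importers rose, SLC39A13 (0.55 ± 0.11, edgeR adjusted p = 0.00183), and SLC39A10 was the 1 that fell, beside 17.9% and 18.2% of all genes tested.

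**Figure D5:**
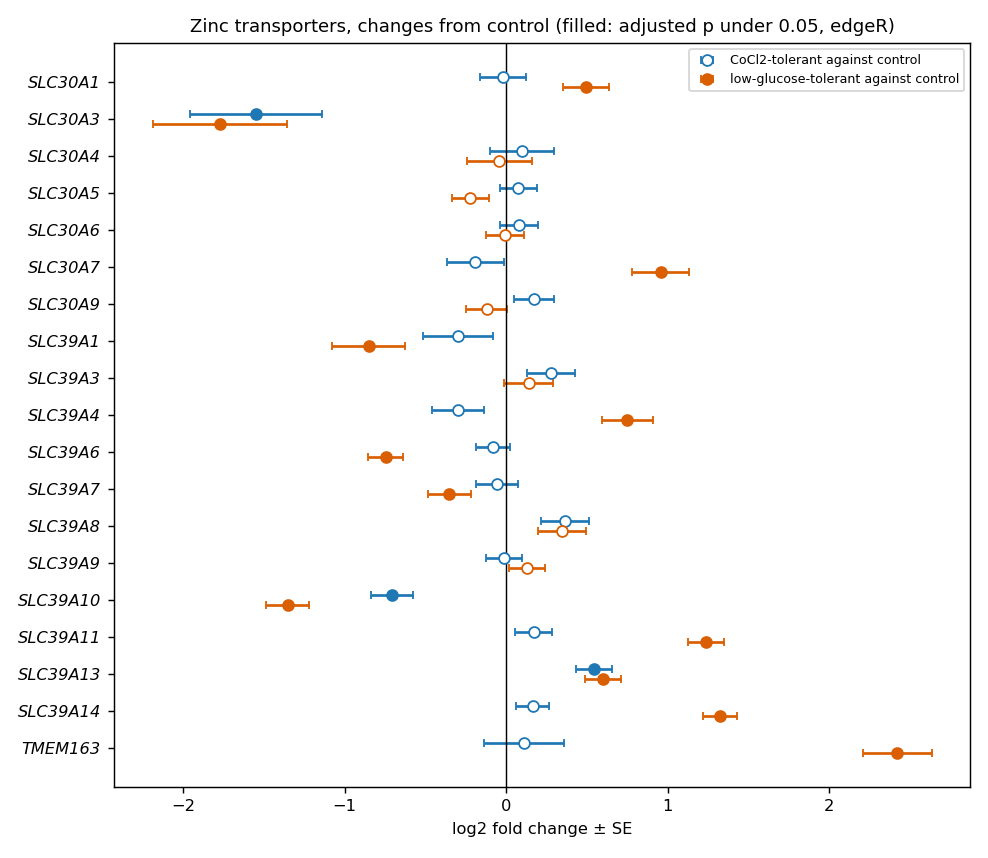
Log2 fold change ± SE against control (x axis) of SLC30A1, the 7 other tested exporters and vesicular transporters, and 11 tested importers (y axis) in the CoCl2-tolerant (blue) and low-glucose-tolerant (orange) lines, filled where the edgeR adjusted p was under 0.05. SLC39A10 is left of 0 in both lines, at -0.71 and -1.35.

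Genes of copper, the other metal that metallothioneins bind, and further zinc-dependent genes were counted in the same fit. Of 10 copper genes, 3 rose and 2 fell in the low-glucose-tolerant line, where 69.2% of all genes tested changed, and 3 rose and 3 fell in the CoCl2-tolerant line, where 36.1% did. In the low-glucose-tolerant line the metalloreductase STEAP3 rose from 198 CPM ± 7.97 to 398 CPM ± 34.1 (edgeR adjusted p = 5.65e-06) and the copper importer SLC31A1 rose by 0.94 ± 0.10 (edgeR adjusted p = 1.27e-06). The copper exporters ATP7A (-0.96 ± 0.22, edgeR adjusted p = 0.00125) and ATP7B (-0.86 ± 0.17, edgeR adjusted p = 5.09e-04) fell there. In the CoCl2-tolerant line SLC31A1 rose by 0.39 ± 0.10 (edgeR adjusted p = 0.00775). ATP7B fell there to 7.05 CPM ± 1.47 (edgeR adjusted p = 6.34e-04) and ATP7A fell by 0.57 on the log2 scale (edgeR adjusted p = 0.0482). The copper chaperone COX17 (0.63 ± 0.18, edgeR adjusted p = 0.0166) and COMMD1 (0.53 ± 0.17, edgeR adjusted p = 0.0233) rose in the CoCl2-tolerant line.

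Of 9 zinc-sensing and zinc-dependent genes, 2 rose and 3 fell in the low-glucose-tolerant line, and 4 rose and 3 fell in the CoCl2-tolerant line, beside the same shares of all genes tested. CA9, a carbonic anhydrase known as a hypoxia marker, had 4, 3 and 5 counts in control, 48, 93 and 61 in CoCl2-tolerant and 0 in each low-glucose-tolerant library. CA9 rose in the CoCl2-tolerant line (4.25 ± 0.38, edgeR adjusted p = 4.18e-06), a fold that rests on few control counts. It was called lower in the low-glucose-tolerant line (edgeR adjusted p = 0.00356). No fold is given there because every library of that line had 0 counts and control had few. CA12, another carbonic anhydrase, rose in both lines, from 31.1 CPM ± 1.36 to 92.6 CPM ± 8.26 with CoCl2 tolerance (edgeR adjusted p = 2.69e-07) and 66.1 CPM ± 7.73 with low-glucose tolerance (edgeR adjusted p = 1.35e-06). ALPL, the zinc enzyme tissue-nonspecific alkaline phosphatase, was at 14.5 CPM ± 0.827 in control and fell in both lines, to 1.76 CPM ± 0.394 with CoCl2 tolerance (edgeR adjusted p = 3.66e-08) and 0.325 CPM ± 0.121 with low-glucose tolerance (edgeR adjusted p = 1.39e-10). CA2 fell in the CoCl2-tolerant line (-0.99 ± 0.22, edgeR adjusted p = 0.00349). In the low-glucose-tolerant line MTF2 fell (-0.58 ± 0.13, edgeR adjusted p = 9.35e-04) and the transcription factor SP1 rose (0.37 ± 0.14, edgeR adjusted p = 0.0293).

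The genes most like 4 of the members over the 9 libraries, among 10838 with a mean of at least 5 CPM, were found by Pearson's r of log2 CPM. The libraries form 3 groups, so these values largely follow the group means and describe only likeness of pattern. For MT2A they were ZNF622 (0.996), CHMP4B (0.994) and TMEM116 (0.991), and for MT1X they were ING3 (0.982), THAP1 (0.981) and KCTD4 (0.974). MTF1 was most like DSTYK (0.975), GOLGA3 (0.972) and KDM5A (0.967). SLC30A1 was most like TMEM106B (0.984), EVI5 (0.976) and BCAT1 (0.974).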

How the data were processed

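RNA from 9 libraries was analysed, 3 each of control, CoCl2-tolerant and low-glucose-tolerant HCT-15 cells; the brefeldin A-tolerant line was not analysed here. Per the labels' protocols, RNA was extracted with TRIzol, and mRNA was sheared and sequenced on an Illumina NovaSeq instrument. The deposited files hold raw read counts per gene, and the submitters' processing notes name featureCounts, DESeq2 and GRCh38. The sources used here do not give the aligner, annotation release, strand setting or read length. Gene identifiers matched a symbol for 35938 of 36018 genes, and 76 more were named from GENCODE 29, which also gave positions and transcripts.

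Counts passing filterByExpr (17902 genes) were fitted with edgeR 4.0.16 in R 4.3.3 (quasi-likelihood F test, TMM factors, 1 mean per group, all 9 libraries), and p-values were adjusted by Benjamini-Hochberg within each comparison. The common biological coefficient of variation was 12.6%. Ratios of low counts carry 95% intervals and a floor of 3 counts, both for counting error only. The procedure was tested on simulated data. Changes were simulated only in genes above the levels of MT1A and MT1G, so that test does not cover genes as low as those. Alternatives were DESeq2 1.42.0, other scalings and filters, only the 2 groups compared, a replicate block, a length and GC trend removed, and each library left out. Leaving out CoCl2-tolerant replicate 1 and low-glucose-tolerant replicate 2 together was chosen after seeing the data. Within-group pairs differed by more than counting error (chi-squared per degree of freedom 2.18 to 66.7), so no library was counted as a copy.

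The 9 genes and the other lists were chosen with earlier results of these data known. All 9 are named whatever their values. Of each other list up to 4 genes per comparison with control are named, ranked by log2 fold change after requiring the test to pass and a level of 1 CPM or more in either group, as are SLC30A10, SLC39A10 and SLC39A14 whatever their values. MT3, MT1H, MT2P1, HERPUD1, NUP93, ENSG00000260823, ENSG00000261270 and the fibroblast markers were chosen after their values were seen. Protein sequences were not used here. No set test was run. Figures used Python 3.11.15 and matplotlib 3.10.9.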

Additional observations from a re-analysis of the deposited data

Results flagged for a closer look

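For 4 genes the changes from control in the CoCl2-tolerant and low-glucose-tolerant lines had opposite signs and the tolerant lines differed by edgeR's direct test. MT1A was at -1.23 and 2.57 on the log2 scale, a difference of -3.80 (edgeR adjusted p = 3.47e-06), and MT1F was at -0.77 and 1.70, a difference of -2.47 (edgeR adjusted p = 1.55e-08). SLC30A1 was at -0.02 and 0.50, a difference of -0.52 (edgeR adjusted p = 0.00567), and MTF1 at -0.22 and 0.29, a difference of -0.51 (edgeR adjusted p = 0.0263). The changes of MT1A, SLC30A1 and MTF1 in the CoCl2-tolerant line, and of MTF1 in the low-glucose-tolerant line, did not pass on their own. The sign of SLC30A1 in the CoCl2-tolerant line, and of MTF1 in either line, changed under some alternatives, given with the dependence on the processing.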

How the results depend on the processing

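Over 19 alternatives, 466 of the fold changes of the 9 genes kept direction and side of the threshold, 24 lost the call, 6 gained it and 8 changed sign. None of the 8 was called. With the length and GC trend removed, CoCl2-tolerant against control gave -0.15 for MT1M, 0.031 for MTF1 and 0.13 for SLC30A1. SLC30A1 in that comparison was also 5.08e-04 without control replicate 2, 0.072 without CoCl2-tolerant replicate 1 (range over single libraries left out -0.071 to 0.072), and 0.068 with that library and low-glucose-tolerant replicate 2 both left out. MTF1 in low-glucose-tolerant against control was -0.023 without low-glucose-tolerant replicate 2 (range -0.023 to 0.46) and -0.022 with both left out. Leaving out each library in turn gave 4463 to 7965 genes changed in CoCl2-tolerant against control, 11373 to 12903 in low-glucose-tolerant against control and 10476 to 11836 between the tolerant lines. Of the 9 genes, 4 to 6, 7 to 8 and 6 to 9 were then called. With a replicate block, 6091, 12118 and 11136 genes changed, and 5, 7 and 9 of the 9 genes. The numbers did not pair the libraries: residuals correlated at -0.595 to 0.324 for shared numbers and -0.677 to 0.586 for others. MT1A and MT1G, with 282 and 71 counts over all libraries, are limited by depth.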
